A study of Homo sapiens with 8 samples.

Results

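The genes that give an airway epithelial cell its identity were followed in BEAS-2B, a line of immortalised cells from the human bronchus. They were chosen by name as 10 genes, and 9 of the 10 were found among the 25411 genes with values, while MUC5AC was not analysed here. Sequenced RNA came from 4 groups, each with 2 biological replicates. Controls had received no nickel (UT). In the exposed group (Ni-E) cells lived in 100 µM NiCl2, a nickel salt that dissolves in the medium, over 6 weeks. In the washed-out group (Ni-W) that exposure ended and cells were plated in nickel-free medium, where a colony grown from 1 cell was picked at random and expanded for more than 6 months. The group HCl3 bore the treatment text of Ni-W, but how long it went without nickel and how it relates to Ni-W were not labelled. A feature of 1 founder cell and an effect of wash-out cannot be told apart in Ni-W. The same holds for HCl3 if it too grew from 1 cell, which was not labelled. Experiment numbers were given for Ni-E (2 for both libraries) and HCl3 (3 and 4) but for neither of the others, so experiment and group cannot be told apart either.

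The airway lining is built from basal stem cells, secretory club cells, mucus-making goblet cells and ciliated cells. Each state is held by transcription factors. NKX2-1, FOXA1, FOXA2 and SOX2 set up lung and airway fate, TP63 is the master regulator of basal cells, FOXJ1 switches on the program of motile cilia, and ELF3 is an epithelial factor of the ETS family. SCGB1A1 is the main secreted protein of club cells, MUC5AC is the gel-forming mucin of goblet cells, and MUC1 is a mucin anchored in the cell membrane. In bulk RNA, more cells of a type and more RNA per cell cannot be told apart.

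Of the 9 genes, 4 were detected and 5 were at or near 0. The detected genes were ELF3, MUC1, FOXA1 and NKX2-1. All 4 were higher in both washed-out groups than in UT, and the windows before their starts are shown for that reason, taken from RefSeq (GRCh38.p14) as the 250 bases before the first listed start, 5′ to 3′ on the strand of the gene. Capitals mark matches on either strand to 5 short motifs. The hypoxia response core was searched as ACGTG and also as GCGTG, and the ETS motif of the ELF type as AGGAAG and also as CGGAAG. The forkhead motif was searched as TGTTTAC, with the variants TGTTTGC and, differing at the start, TATTTAC. The NKX2 motif was CAAGTG, and the E-box was CAGGTG with its reverse complement CACCTG on the other strand.
ELF3 (chr1:202010337-202010586, plus strand): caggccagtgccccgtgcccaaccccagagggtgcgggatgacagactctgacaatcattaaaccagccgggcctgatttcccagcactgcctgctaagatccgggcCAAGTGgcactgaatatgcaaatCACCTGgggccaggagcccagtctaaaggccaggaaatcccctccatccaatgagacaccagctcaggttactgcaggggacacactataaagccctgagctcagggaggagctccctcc
MUC1 (chr1:155192916-155193165, minus strand): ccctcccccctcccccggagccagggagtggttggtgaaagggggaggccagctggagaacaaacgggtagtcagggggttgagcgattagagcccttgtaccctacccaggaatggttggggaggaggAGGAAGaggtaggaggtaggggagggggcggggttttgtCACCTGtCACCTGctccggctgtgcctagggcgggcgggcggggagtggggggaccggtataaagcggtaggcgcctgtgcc
FOXA1 (chr14:37595250-37595499, minus strand): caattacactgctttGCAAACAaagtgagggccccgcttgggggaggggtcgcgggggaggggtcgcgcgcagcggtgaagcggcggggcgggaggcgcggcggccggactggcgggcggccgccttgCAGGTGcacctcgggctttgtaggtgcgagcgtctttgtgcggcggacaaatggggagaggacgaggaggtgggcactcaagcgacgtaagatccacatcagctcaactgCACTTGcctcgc
NKX2-1 (chr14:36520233-36520482, minus strand): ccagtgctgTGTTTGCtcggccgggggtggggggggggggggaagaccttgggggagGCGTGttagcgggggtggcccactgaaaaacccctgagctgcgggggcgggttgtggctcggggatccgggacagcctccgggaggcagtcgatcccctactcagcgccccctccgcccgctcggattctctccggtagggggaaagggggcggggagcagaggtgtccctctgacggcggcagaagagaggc

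Matches were spread over the windows without a motif that all 4 shared. The ELF3 window held 1 NKX2 motif and 1 E-box. The MUC1 window held 1 ETS motif and 2 E-boxes. The FOXA1 window held 1 forkhead motif, 1 NKX2 motif and 1 E-box, and the NKX2-1 window held 1 forkhead motif and 1 hypoxia response core. Among 35116 windows of the same length, an E-box was found in 17.5%, an ETS motif in 40.8%, a hypoxia response core in 43.2%, an NKX2 motif in 9.5% and a forkhead motif in 8.27%. The windows also differed in CpG content, with 4 CpG in ELF3, 11 in MUC1, 18 in NKX2-1 and 26 in FOXA1 beside a median of 11. Of the genes at 0, SOX2 had 20 CpG and TP63 had 6 in the same window. A match is a description of the letters and says nothing of binding.

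Total counts were between 26383920 and 45692298 reads per library, and 3 reads, taken as the floor, corresponded to between 0.0657 and 0.114 CPM, counts scaled to a common library total. Levels are given as RPKM, which divides reads by gene length and by library depth so that genes can be compared. Changes are DESeq2 log2 fold changes with the standard error (SE), fitted on the counts of all genes. A gene was called when its adjusted P value was under 0.05 and it changed by at least 1.5-fold. With 2 replicates against 2, an exact two-sided permutation test of a single gene cannot go below P = 0.333, so the calls rest on the spread that DESeq2 shares across genes. The labelled cell type was checked next. The general epithelial keratins KRT8 (192.19 to 310.30 RPKM) and KRT18 (144.46 to 245.18 RPKM) were high in every library, while the epithelial adhesion genes EPCAM (0.95 to 1.79 RPKM) and CDH1 (0.01 to 0.11 RPKM) were low. Of the 3 club markers and 2 goblet markers with values, all 5 had at most 3 reads in each library, as did 3 of 5 basal and 3 of 4 ciliated markers. Fibroblast markers were split, with COL1A1 at 177.60 to 454.16 RPKM and COL3A1 at 0 to 0.07 RPKM, and CDH5, PECAM1 and VWF of endothelium summed to at most 0.11 RPKM. The plot of these genes shows both sides, the abundant general keratins and the markers of specialised airway cells, most of them at or under the floor.

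**Figure D1:**
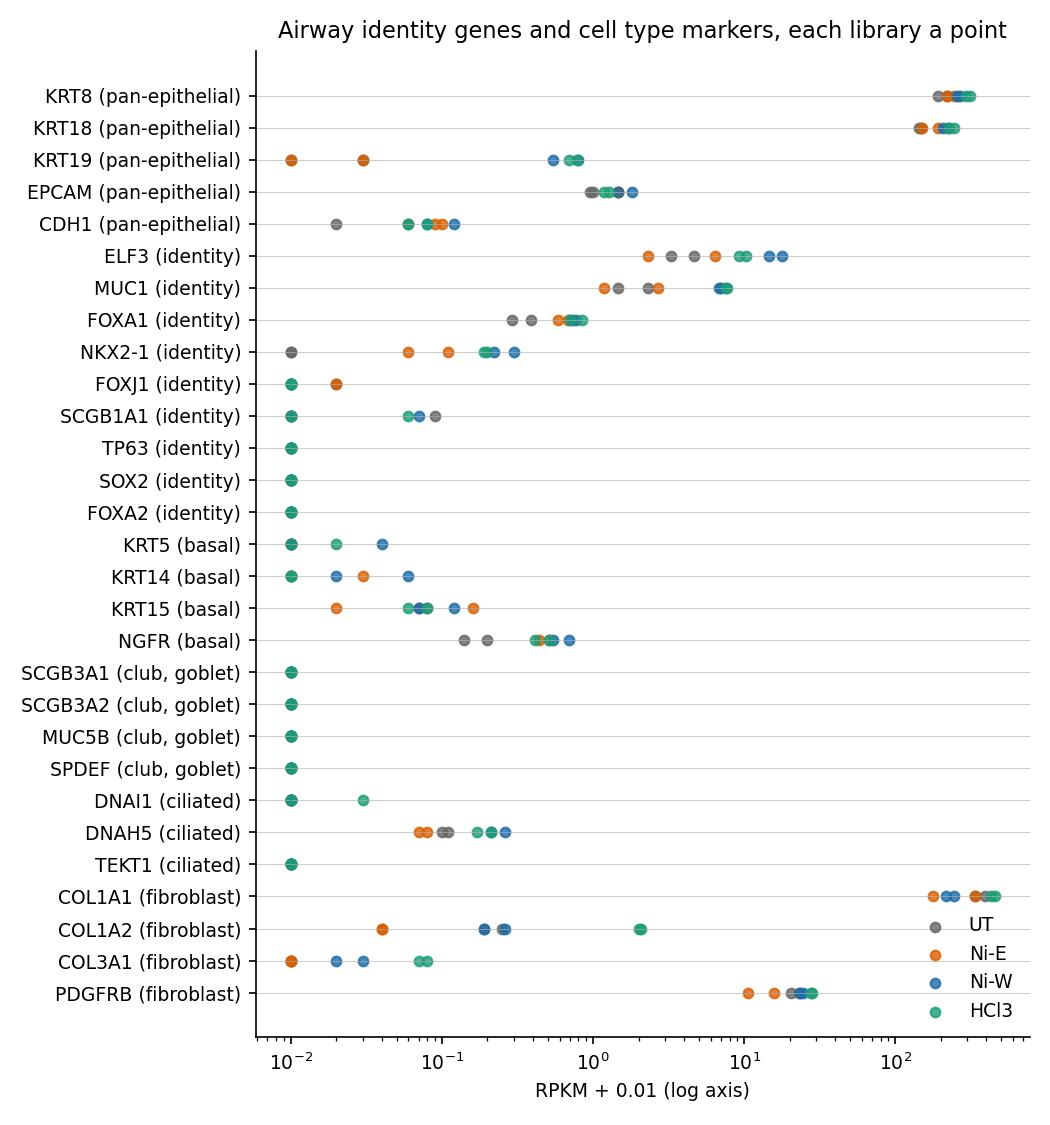
RPKM plus 0.01 on a log axis for the airway identity genes and for cell type markers, with 1 point per library coloured by group. KRT8 and KRT18 lie above 144 RPKM, ELF3, MUC1, FOXA1 and NKX2-1 lie further right in Ni-W and HCl3 than in UT, and TP63, SOX2 and FOXA2 lie at 0 in every library.

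ELF3, which drives epithelial genes and is induced by inflammation in airway cells, had the highest level of the 9. It lies on chromosome 1 (hg19, 201979690 to 201986315), and its value covers all exons. ELF3 read 4.66 and 3.27 RPKM in the UT libraries, 2.29 and 6.38 RPKM in the Ni-E libraries, 17.87 and 14.51 RPKM in the Ni-W libraries and 9.18 and 10.33 RPKM in the HCl3 libraries. Both Ni-W libraries lay above both HCl3 libraries, and these above every UT and Ni-E library, whereas UT and Ni-E overlapped. Group means were 3.96 ± 0.98 RPKM (UT), 4.33 ± 2.9 RPKM (Ni-E), 16.2 ± 2.4 RPKM (Ni-W) and 9.75 ± 0.81 RPKM (HCl3), each with its SD at n = 2. The Ni-E replicates differed by 2.79-fold, more than the replicates of any other group for this gene. ELF3 ranked above 61.3 to 69.8% of all genes in UT and Ni-E libraries, and above 74.3 to 83.3% in washed-out libraries.

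MUC1 forms a glycosylated coat on the cell surface and signals through its short tail inside the cell. It lies on chromosome 1 (hg19, 155158300 to 155162706). MUC1 read 2.30 and 1.45 RPKM in the UT libraries, 1.18 and 2.69 RPKM in the Ni-E libraries, 6.76 and 7.02 RPKM in the Ni-W libraries and 7.56 and 7.68 RPKM in the HCl3 libraries. All 4 washed-out libraries lay above the 4 others, and UT and Ni-E overlapped. Group means were 1.88 ± 0.6 RPKM (UT), 1.94 ± 1.1 RPKM (Ni-E), 6.89 ± 0.18 RPKM (Ni-W) and 7.62 ± 0.085 RPKM (HCl3), each with its SD at n = 2. As with ELF3, Ni-E replicate 2 was the higher, here by 2.28-fold. COL1A1 differed the same way between these Ni-E replicates (177.60 and 337.31 RPKM), and its part in the ELF3 and MUC1 values was not tested.

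FOXA1, a forkhead factor that opens closed chromatin for other factors, was low in all groups. It lies on chromosome 14 (hg19, 38058757 to 38064325) and had between 38 and 125 reads in a library. FOXA1 read 0.28 and 0.38 RPKM in the UT libraries, 0.67 and 0.58 RPKM in the Ni-E libraries, 0.72 and 0.76 RPKM in the Ni-W libraries and 0.83 and 0.69 RPKM in the HCl3 libraries. Both UT libraries were the lowest, and the other groups were close to each other. Group means were 0.33 ± 0.071 RPKM (UT), 0.625 ± 0.064 RPKM (Ni-E), 0.74 ± 0.028 RPKM (Ni-W) and 0.76 ± 0.099 RPKM (HCl3), each with its SD at n = 2.

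NKX2-1, the factor that marks lung and thyroid fate, was at the edge of detection. It lies on chromosome 14 (hg19, 36985604 to 36989430). The UT libraries had 0 reads each, the Ni-E libraries 4 and 8, the Ni-W libraries 34 and 16, and the HCl3 libraries 17 and 16. Per length, this was 0 RPKM for UT, 0.05 and 0.10 RPKM for Ni-E, 0.29 and 0.21 RPKM for Ni-W, and 0.19 and 0.18 RPKM for HCl3. In RPKM the groups did not overlap, but the highest library was still below 0.3 RPKM. Ni-W and HCl3 lay close, and their raw reads did overlap. The antisense gene NKX2-1-AS1 overlaps NKX2-1 and had 0 to 3 reads in a library, and whether counting used the strand was not given in the sources used here, so reads of the pair cannot be told apart.

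**Figure D2:**
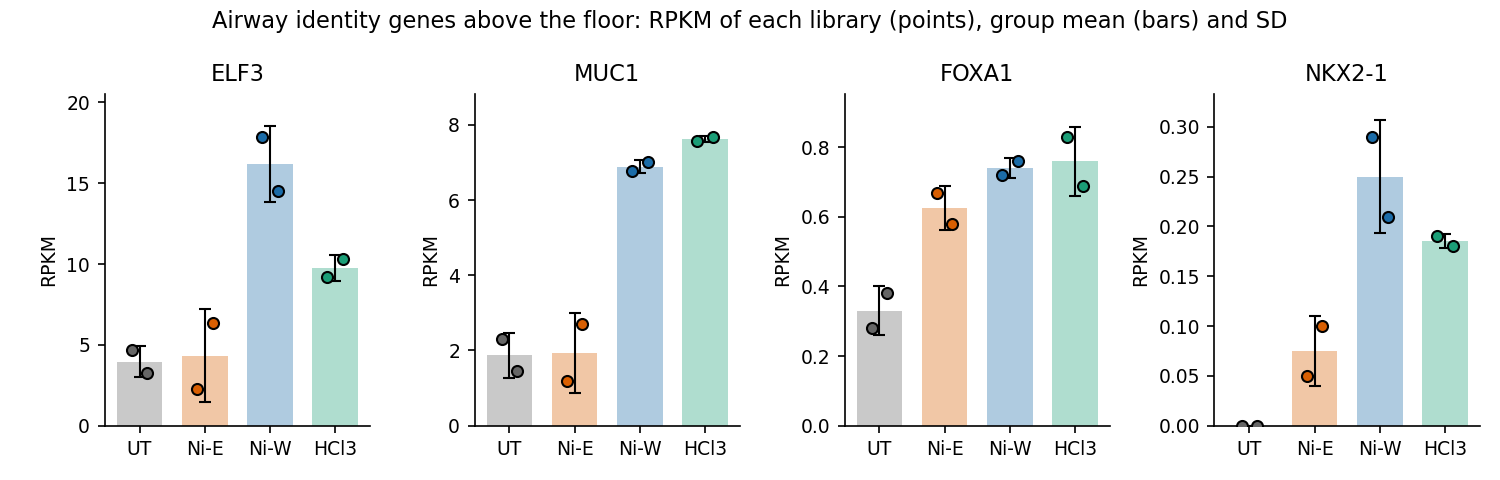
RPKM of ELF3, MUC1, FOXA1 and NKX2-1 in the 4 groups, with 1 point per library, bars at the group mean and error bars of 1 SD (n = 2). Each panel has its own axis from 0. ELF3 was highest in Ni-W (mean 16.2 RPKM), MUC1 rose to 6.89 and 7.62 RPKM in the washed-out groups, and NKX2-1 had no reads in UT.

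The remaining 5 genes gave no signal. TP63, SOX2 and FOXA2 had 0 reads in all 8 libraries, which allows at most 3 reads in each. FOXJ1 had 1 read in UT replicate 1 and 1 in Ni-E replicate 2, and SCGB1A1 had 1 read in each of UT replicate 2, Ni-W replicate 2 and HCl3 replicate 1. No fold change is given for these genes because every group was at or under the floor. They lie on chromosome 3 (TP63, 189507449 to 189615068, and SOX2, 181429712 to 181432223), chromosome 20 (FOXA2, 22561642 to 22566101), chromosome 17 (FOXJ1, 74132415 to 74137380) and chromosome 11 (SCGB1A1, 62186507 to 62190678), all in hg19. SOX2 lies inside SOX2-OT, which had at most 1 read in a library. TP63, FOXJ1 and SCGB1A1, named above for basal, ciliated and club cells, were thus not detectable above the floor at this depth, in UT as in the washed-out groups.

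The comparison of Ni-E with UT asks what changes while nickel is present. None of the genes was called (0 of 3 with an adjusted P value), where 5.80% of all 14478 genes tested by DESeq2 were called. At an unadjusted P value under 0.05 in DESeq2 there was 1 gene, NKX2-1 (at least 1.74-fold higher with UT set to the floor), and the edgeR test also called 0 of these genes. FOXA1 changed by 0.87 on the log2 scale (SE 0.44, DESeq2 adjusted P = 0.214) and was not called, with both Ni-E libraries above both UT libraries. ELF3 had a log2 fold change of 0.07 with a 95% interval of -1.35 to 1.49, and MUC1 of -0.10 with an interval of -0.94 to 0.74. These intervals are wide and do not show that the genes were unchanged. Without Ni-E replicate 2, ELF3 moved to -0.83 (adjusted P = 0.141), and without Ni-E replicate 1, MUC1 moved to 0.37 (adjusted P = 0.916).

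The comparison of Ni-W with UT asks what differs long after nickel is gone. ELF3, MUC1, FOXA1 and NKX2-1 rose, 4 of 4 genes tested, where 15.7% of 15826 genes were called in either direction and 10.9% rose. NKX2-1 could enter the test only through the groups in which it had reads, so the count of 4 describes these genes and supports no more. The log2 fold change was 1.99 for ELF3 (SE 0.17, DESeq2 adjusted P = 1.28e-28), or 3.97-fold. For MUC1 it was 1.86 (SE 0.26, adjusted P = 6.14e-11), or 3.62-fold. FOXA1 rose by less, 1.13 (SE 0.40, adjusted P = 0.02). NKX2-1 was at least 6.31-fold higher with UT set to the floor (adjusted P = 0.000664). The calls of ELF3 and MUC1 held without any single library, with log2 fold changes that stayed at or above 1.58 and 1.47 over all alternatives. FOXA1 lost its call without each of the 4 libraries in turn (adjusted P between 0.0549 and 0.329), and NKX2-1 lost it without Ni-W replicate 1 (0.106).

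HCl3, the other washed-out group, was set against UT as well, with the UT libraries shared between both comparisons and the time without nickel not labelled. Here too 4 of 4 tested genes rose, namely MUC1, ELF3, FOXA1 and NKX2-1, where 14.8% of 15766 genes were called and 11.1% rose. MUC1 rose by 1.97 on the log2 scale (SE 0.25, DESeq2 adjusted P = 1.47e-13), or 3.91-fold. ELF3 had 1.24 (SE 0.17, adjusted P = 1.01e-11), or 2.36-fold. FOXA1 had 1.17 (SE 0.39, adjusted P = 0.0131), and NKX2-1 was at least 4.37-fold higher (adjusted P = 0.00326). Without UT replicate 1, FOXA1 (adjusted P = 0.194) and NKX2-1 (0.0539) lost their calls. They also lost them without HCl3 replicate 1 (0.413 and 0.172) and without HCl3 replicate 2 (0.24 and 0.143), while ELF3 and MUC1 kept theirs in each case. The FOXA1 call was lost as well with the replicate suffix as a block (adjusted P = 0.137).

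Washed-out cells were also compared with Ni-E cells, where the end of exposure, any founder cell and the time in culture cannot be told apart. In Ni-W, MUC1 was 3.87-fold higher than in Ni-E (log2 fold change 1.95, SE 0.30, DESeq2 adjusted P = 7.82e-10) and ELF3 3.77-fold higher (1.92, SE 0.68, adjusted P = 0.0147). That made 2 of 4 genes called, where 20.5% of 15989 genes were called. The ELF3 call was lost without Ni-W replicate 1 (adjusted P = 0.29) or replicate 2 (0.202). In HCl3, MUC1 alone was called, 1 of 4 beside a background of 17.1%, and it was 4.19-fold higher than in Ni-E (2.07, SE 0.28, adjusted P = 9.35e-12). ELF3 gave 1.17 on the log2 scale in HCl3 against Ni-E (SE 0.67, adjusted P = 0.167). It passed the thresholds with Ni-E replicate 1 left out (0.62, adjusted P = 0.000805) or with replicate 2 left out (2.05, adjusted P = 2.82e-27). FOXA1 differed little from Ni-E, by 0.24 in Ni-W (95% interval -0.45 to 0.94) and by 0.28 in HCl3 (-0.41 to 0.96), and neither was called. NKX2-1 had log2 fold changes of 1.86 in Ni-W (SE 0.92, adjusted P = 0.1) and 1.32 in HCl3 (SE 1.02, adjusted P = 0.332), and the edgeR test called it in Ni-W (1.83, adjusted P = 0.0178).

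Between Ni-W and HCl3, ELF3 was the gene called, 1 of 4 genes called where 4.77% of 14956 genes were called. ELF3 was 1.68-fold lower in HCl3 than in Ni-W (log2 fold change -0.75, SE 0.12, DESeq2 adjusted P = 1.69e-08). When all 8 libraries shared 1 fit and thereby the wide spread of Ni-E, its adjusted P value was 0.415. MUC1 differed by 0.12 (95% interval -0.19 to 0.43), FOXA1 by 0.04 (-0.55 to 0.63) and NKX2-1 by -0.54 (-1.87 to 0.80), and none of the 3 was called.

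**Figure D3:**
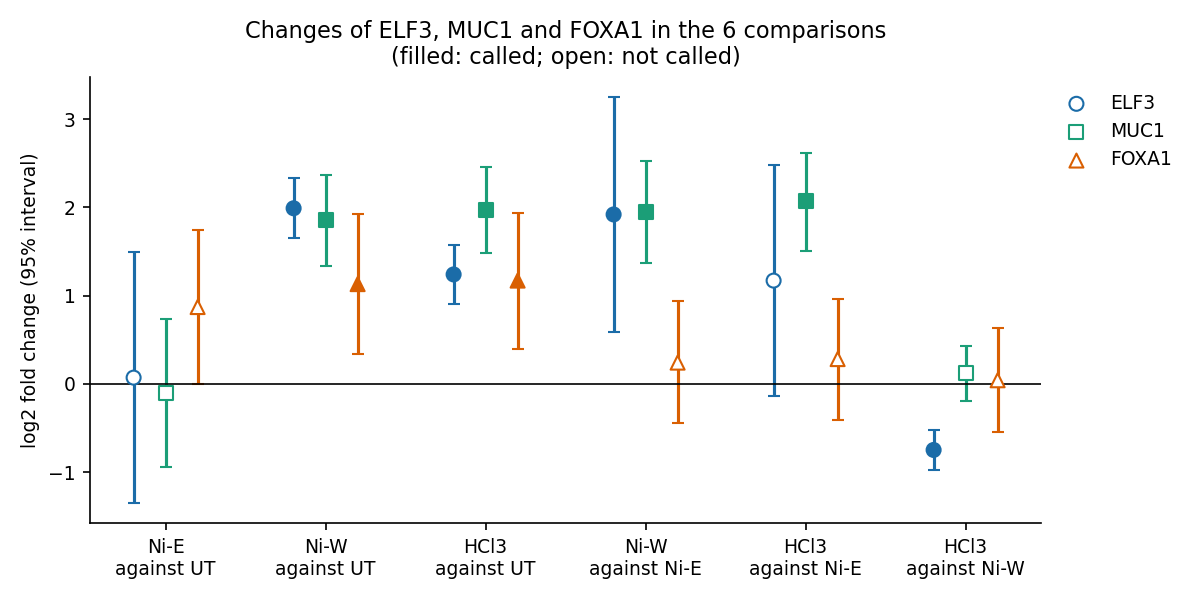
Log2 fold changes of ELF3, MUC1 and FOXA1 in the 6 comparisons, with 95% intervals from the DESeq2 standard error; filled symbols were called and open symbols were not. MUC1 lies near 2 in each comparison of a washed-out group with UT or Ni-E, and ELF3 is wide wherever Ni-E takes part. NKX2-1 is left out because UT had no reads.

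The genes around each locus were examined next, to see whether a detected gene moved with its neighbours. Windows of 10 Mb were used, limited to genes whose normalised counts averaged 50 or more. Around ELF3, 74 genes had a median of 0.41 on the log2 scale in Ni-W against UT, and 24 of them rose and 0 fell. In HCl3 against UT their median was 0.10, and 16 rose and 0 fell. Over all genes tested, 10.9% rose and 4.83% fell in Ni-W, and 11.1% rose and 3.74% fell in HCl3. ELF3 exceeded its window by 1.58 in Ni-W and by 1.14 in HCl3. Between HCl3 and Ni-W, the window median was -0.28, and the ELF3 difference above it was -0.47, below the 1.5-fold threshold. Around MUC1, 144 genes had medians of 0.25 in Ni-W and 0.02 in HCl3, which left 1.61 and 1.95 for MUC1 itself. Around FOXA1 and NKX2-1, medians were between -0.13 and -0.11 in all 3 comparisons with UT. The part of the neighbourhood in the ELF3 difference between the washed-out groups was not tested.

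**Figure D4:**
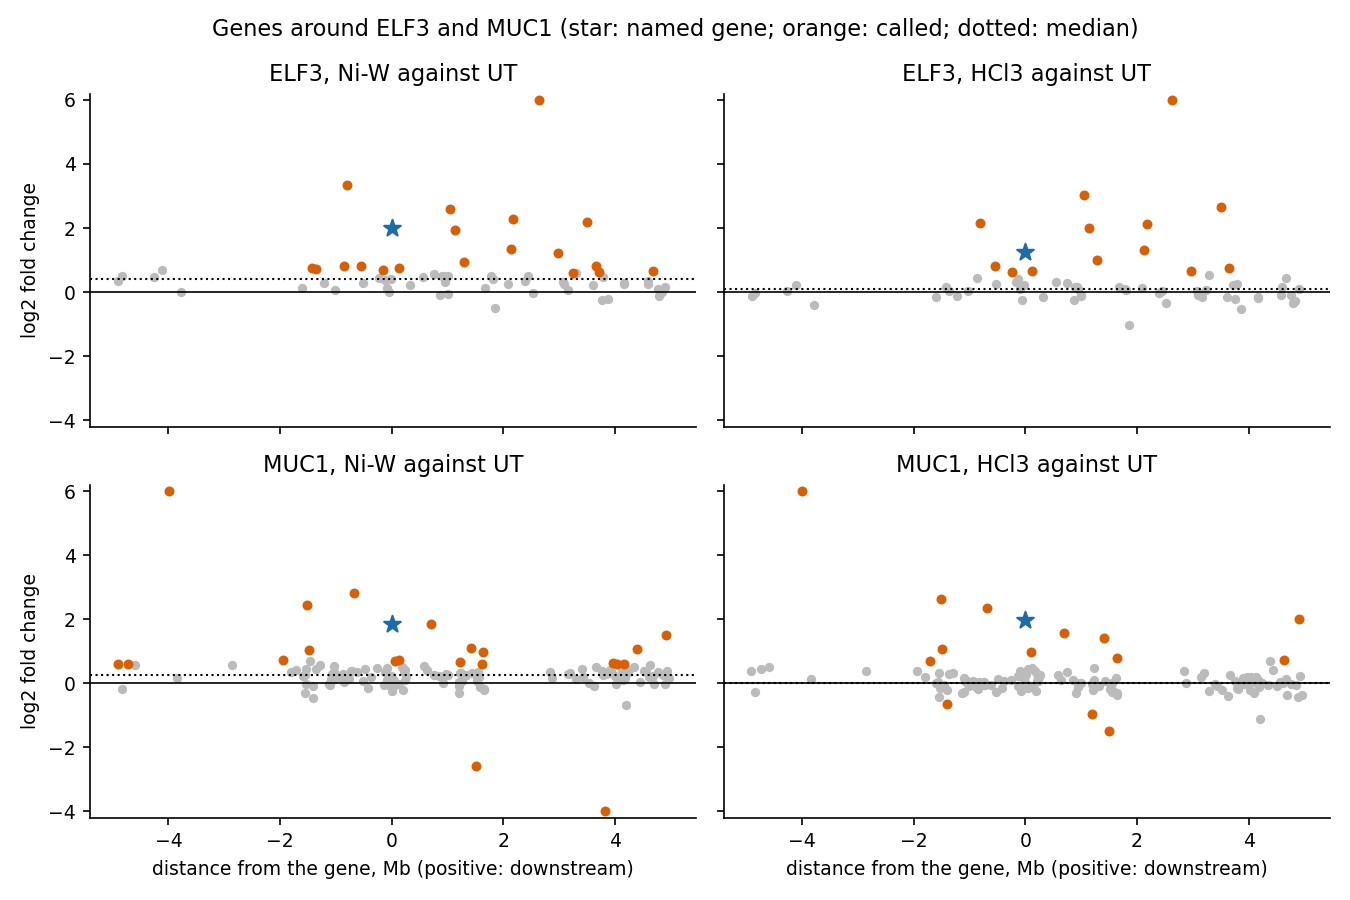
Log2 fold changes of genes within 5 Mb of ELF3 (top) and MUC1 (bottom) in Ni-W and HCl3 against UT, by distance in Mb along the strand of the gene; values past -4 or 6 are drawn at the edge. Stars mark ELF3 and MUC1, orange points the other called genes, and dotted lines the median of the neighbours, which is visibly above 0 around ELF3 in Ni-W.

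The genes whose profile over the 8 libraries was most like each detected gene were listed by Pearson's r of log2 normalised counts, as a description without a test. All share the same libraries and 4 groups. For ELF3 they were C1S (r = 0.994), a protease of complement, GOLGA2 (0.989), a Golgi matrix protein, and ZMYM3 (0.988). C1S had 1.31 and 4.09 RPKM in the Ni-E libraries and 14.75 and 11.30 RPKM in the Ni-W libraries. For MUC1 they were C10orf54 (0.995), which encodes the immune checkpoint protein VISTA, ZSWIM4 (0.993) and ZER1 (0.993). For FOXA1 they were ZEB1 (0.991), a repressor of epithelial genes, FAM210B (0.989) and FKBP9P1 (0.982). ZEB1 stood at 0.99 and 1.25 RPKM in UT and between 1.70 and 2.51 RPKM in the other groups.

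The wider set of lung and airway transcription factors held 35 genes, of which 13 had at most 3 reads in each library. In Ni-E against UT, 2 of 18 tested rose and 1 fell, beside 3.75% and 2.05% of all genes. These were ETV4 (log2 fold change 1.67, SE 0.25) and ETV5 (1.46, SE 0.39), ETS factors downstream of FGF signals, and ID2 (-0.72, SE 0.24), an inhibitor of helix-loop-helix factors found at lung bud tips. With the replicate suffix as a block 1 rose and 0 fell, so the fall of ID2 was no longer called. Limma on RPKM called 0 of all 17794 genes in this comparison, so its 0 here says nothing about this list. In Ni-W against UT, 8 of 22 rose and 1 fell, beside 10.9% and 4.83% of all genes, with a median of 0.42 (0.29 with genes at their bound), beside 0.01 over all genes. In HCl3 against UT, 7 of 21 rose and 1 fell, beside 11.1% and 3.74% of all genes, with a median of 0.46. The genes that rose in both washed-out groups include ELF3, FOXA1 and NKX2-1, so these counts in part repeat the results given above. NKX2-1 could enter the test only through the groups in which it had reads. Limma called 4 genes of this list in Ni-W and 3 in HCl3, all higher, and in HCl3 the block left 5 higher and 0 lower. GATA6, which specifies lung endoderm, rose by 0.88 in Ni-W (SE 0.21) and 0.75 in HCl3 (SE 0.20) on the log2 scale. SOX9, a factor of distal lung progenitors, read 0.21 and 0.28 RPKM in UT libraries, 0.59 and 0.81 RPKM in Ni-W libraries and 1.60 and 1.48 RPKM in HCl3 libraries. ID2 lay below UT in both Ni-E libraries and above it in all washed-out libraries, with 5.56 and 5.35 RPKM for UT, 3.19 and 3.68 RPKM for Ni-E, 18.92 and 17.53 RPKM for Ni-W, and 13.08 and 12.32 RPKM for HCl3. GRHL1, a grainyhead factor of epithelial barriers, fell in Ni-W (-1.42, SE 0.35, adjusted P = 0.000347) and in HCl3 (-1.04, SE 0.33, adjusted P = 0.00749). Against Ni-E, 5 rose and 4 fell in each washed-out group, of 22 tested in Ni-W and 21 in HCl3, where 20.5% and 17.1% of all genes were called, with ETV5 lower by 1.17 and 1.07 on the log2 scale.

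Of 20 airway basal cell genes, 10 of 15 tested rose in Ni-W against UT and 9 of 15 in HCl3, where 10.9% and 11.1% of all genes rose, and 0 fell in either. Medians were 0.74 and 0.80, beside 0.01 over all genes. In Ni-E, 4 of 15 rose and 2 fell, beside 3.75% and 2.05% of all genes. Limma called 0 of them, as it called 0 of all 17794 genes in Ni-E against UT. Of 5 basal cell markers, 3 had at most 3 reads in each library, namely TP63 with no reads, KRT5 and KRT14. The marker NGFR was called higher in both washed-out groups. KRT17, a stress and basal keratin, went from 3.47 and 3.69 RPKM in UT to 10.66 and 23.93 in Ni-E, and stayed between 21.17 and 23.10 in Ni-W and HCl3. ITGB4, the integrin of hemidesmosomes, went from 1.44 and 0.91 RPKM in UT to 5.42 and 5.36 in HCl3. In Ni-E it was already called higher than in UT (log2 fold change 1.00, SE 0.26). PDPN, a surface glycoprotein shared with alveolar type 1 cells, went from 0.07 and 0 RPKM in UT to 10.23 and 9.92 in Ni-W. PDPN too was already called higher in Ni-E than in UT (log2 fold change 5.31, SE 0.74). SNAI2, a repressor of epithelial adhesion genes, rose to 1.10 and 1.58 RPKM in Ni-W from 0.32 and 0.26 in UT. NGFR, the nerve growth factor receptor of basal cells, rose in Ni-W as well (log2 fold change 1.90, SE 0.50), but stayed under 0.7 RPKM. S100A2, a calcium-binding protein, fell in Ni-E by 0.88 on the log2 scale (SE 0.27), and was higher in Ni-W than in Ni-E (1.46, SE 0.23).

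**Figure D5:**
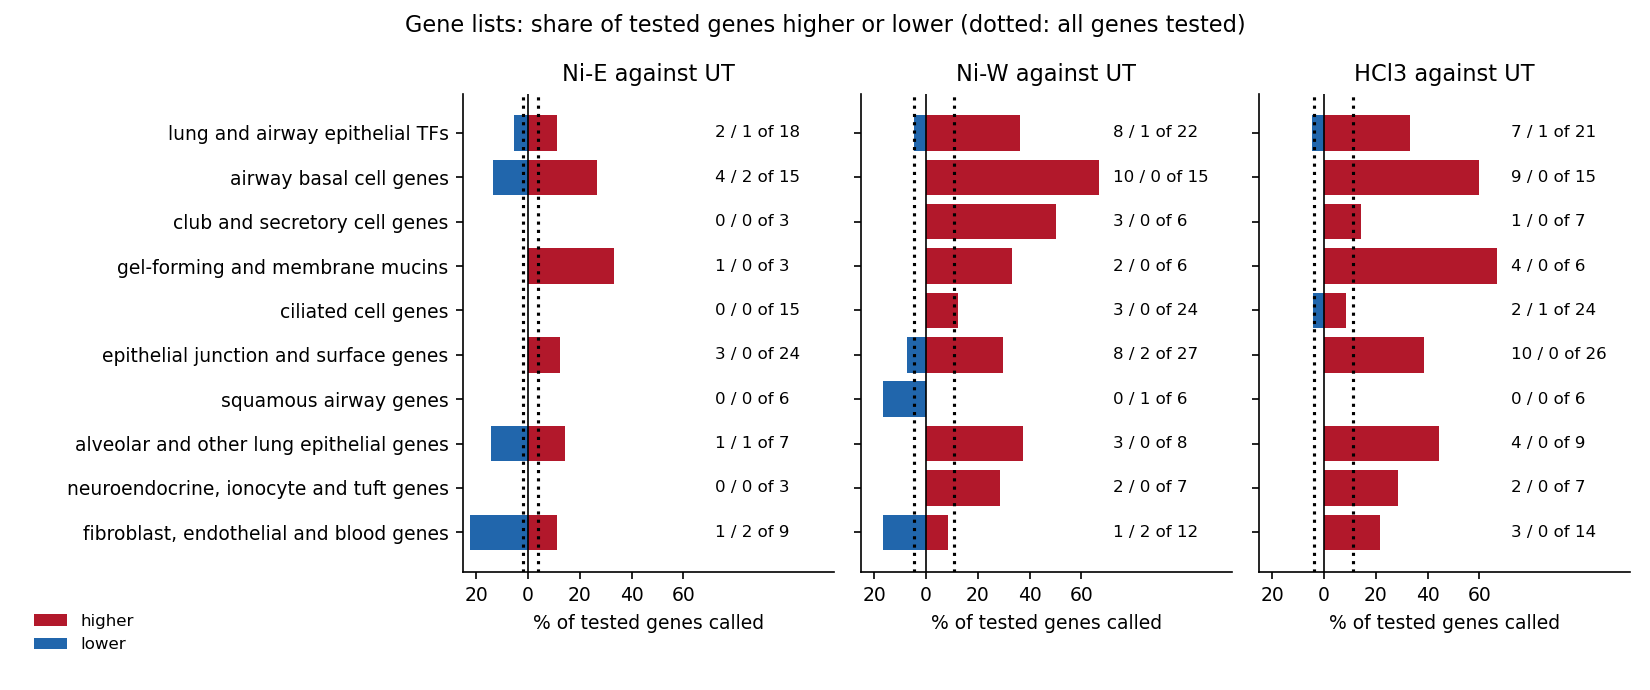
Share of tested genes that rose (red) or fell (blue) in each gene list, in the 3 comparisons with UT; numbers give higher, lower and tested genes, and dotted lines give the shares over all genes tested. Basal cell genes had 10 of 15 tested genes higher in Ni-W, and ciliated cell genes lay near the background.

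Secretory genes were largely silent. Of 25 club and secretory genes with values, 18 had at most 3 reads in each library, and 3 of 6 tested rose in Ni-W, 1 of 7 in HCl3 and 0 of 3 in Ni-E, beside 10.9, 11.1 and 3.75% of all genes. With the block 1 rose in Ni-W and 0 in HCl3, and with limma 2 and 0. The 3 that rose had at most 3 reads in each UT library and could enter the test only through libraries in which they were higher, so these counts describe the genes and support no more. The 3 are named after their values were seen. They were LCN2, an iron-binding defence protein (2 and 3 reads in UT, 54 and 45 in Ni-W, 12 and 16 in HCl3), WFDC2 (1 and 0 in UT, 23 and 11 in Ni-W) and SERPINB4 (0 and 1 in UT, 25 and 12 in Ni-W, 19 and 13 in HCl3). SERPINB4 is nearly identical to SERPINB3, and its value is uncertain because reads with several alignments were removed. Of 20 mucin genes with values, 11 had at most 3 reads in each library, and MUC5B had at most 2. MUC1 was the only mucin proper above 1 RPKM. The other gene of the list above that level was MCAM, an adhesion molecule also named MUC18, which rose in Ni-E (log2 fold change 1.10, SE 0.12), Ni-W (0.82, SE 0.10) and HCl3 (0.87, SE 0.09). In all, 1 of 3 tested rose in Ni-E, 2 of 6 in Ni-W and 4 of 6 in HCl3, where MUC4 (13 and 5 reads) and MUC12 (19 and 21 reads), also chosen after their values were seen, were added. MUC4 had at most 3 reads in each UT library and could enter the test only through libraries in which it was higher. The count of 4 thus describes these genes and supports no more. The 4 in HCl3 became 2 with the block, 2 with limma and 2 with GC and length trends removed.

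Ciliated genes did not follow. Of 38 with values, 0 of 15 tested were called in Ni-E, 3 of 24 rose in Ni-W, and 2 of 24 rose and 1 fell in HCl3, near the 10.9 and 11.1% of all genes that rose. Over all genes, 3.74% fell in HCl3 and 5.80% were called in Ni-E. DNAH11, a dynein heavy chain of cilia, rose in Ni-W (log2 fold change 1.25, SE 0.28) and HCl3 (1.31, SE 0.27), from 0.16 and 0.21 RPKM in UT to between 0.44 and 0.48 RPKM. DNAH5, of the same family, rose in Ni-W (1.19, SE 0.35), and TP73, a relative of TP63 that acts in ciliated cells, rose in Ni-W (0.72, SE 0.18) and HCl3 (0.80, SE 0.17). TP73 is also in the basal list and was counted there too. RFX3, a factor of cilium genes, fell in HCl3 by 0.63 on the log2 scale (SE 0.20, adjusted P = 0.00804).

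Among 30 epithelial junction and surface genes, 8 of 27 tested rose and 2 fell in Ni-W, 10 of 26 rose and 0 fell in HCl3, and 3 of 24 rose in Ni-E. Over all genes, 10.9% rose and 4.83% fell in Ni-W, 11.1% rose and 3.74% fell in HCl3, and 3.75% rose in Ni-E. The count in Ni-E was 1 with the block and 0 with limma, which called 0 of all genes in that comparison. List medians were 0.74, 0.52 and 0.22. ELF3, reported above, is in this list and among the genes that rose in both washed-out groups. KRT19, also among them, could enter the test only through these groups. DSP, which links desmosomes to keratin filaments, went from 0.23 and 0.34 RPKM for UT to 2.19 and 1.93 RPKM for Ni-E, 5.49 and 5.72 RPKM for Ni-W, and 8.31 and 8.49 RPKM for HCl3. SPINT2, an inhibitor of surface proteases, was at 1.28 and 1.07 RPKM for UT, 2.95 and 2.65 RPKM for Ni-E, 3.88 and 3.52 RPKM for Ni-W, and 4.03 and 4.27 RPKM for HCl3. Its relative SPINT1 was higher in Ni-W than in Ni-E (log2 fold change 1.64, SE 0.16) and lower in HCl3 than in Ni-W (-0.67, SE 0.12). Among Ni-E, HCl3 and Ni-W this was the order seen for ELF3. Against UT, SPINT1 was called in Ni-W (1.14, SE 0.15). KRT19, a keratin of simple epithelia that is also an airway marker here, had at most 1 read in each UT and Ni-E library and between 27 and 59 reads in the washed-out libraries, at least 10.8-fold higher in Ni-W and at least 11.9-fold higher in HCl3 with UT set to the floor. CLDN1, a tight junction protein, fell in Ni-W against UT (-0.88, SE 0.10, adjusted P = 5.49e-16) and stood at 35.41 and 36.75 RPKM in Ni-W beside 62.51 and 66.78 in UT. JUP, which binds cadherins in desmosomes, rose against UT in Ni-W (1.42, SE 0.11) and in HCl3 (0.82, SE 0.10). It was lower in HCl3 (26.22 and 26.14 RPKM) than in Ni-W (39.97 and 37.84 RPKM), by 0.59 on the log2 scale (SE 0.08). CDH3, the placental cadherin, rose in Ni-W (1.60, SE 0.50) and HCl3 (1.69, SE 0.48), and CLDN3 rose in HCl3 (1.30, SE 0.38).

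Squamous genes, which airway cells turn on after injury, were mostly silent. Of 21, 15 had at most 3 reads in each library, and 0 of 6 tested rose in any group against UT. SFN, an epithelial 14-3-3 protein, fell in Ni-W (-0.66, SE 0.13, adjusted P = 2.19e-06). DSC3, a desmosomal cadherin, was higher in Ni-W than in Ni-E (0.75, SE 0.09) and lower in HCl3 than in Ni-W (-0.85, SE 0.08). Genes of other lung cells were counted in the same way, and are to be read beside the 10.9, 11.1 and 3.75% of all genes that rose in Ni-W, HCl3 and Ni-E. The shares of all genes that fell were 4.83, 3.74 and 2.05% in the same order. Of 16 alveolar genes, 3 of 8 tested rose in Ni-W and 4 of 9 in HCl3, and in Ni-E 1 of 7 rose and 1 fell. PDPN, already counted among the basal genes, is also in this list and rose in Ni-E, Ni-W and HCl3. LAMP3, a lysosomal protein of alveolar type 2 cells and dendritic cells, had log2 fold changes of 3.04 (SE 0.39) in Ni-W and 2.92 (SE 0.39) in HCl3, whereas the surfactant markers SFTPC, SFTPB and NAPSA summed to at most 0.09 RPKM. CAV1, the coat protein of caveolae, fell in Ni-E (49.94 and 44.33 RPKM, against 76.62 and 83.94 RPKM in UT), and LPCAT1, an enzyme of surfactant lipid synthesis, rose in Ni-W (0.91, SE 0.11) and HCl3 (0.67, SE 0.10). ABCA3, a lipid transporter, rose in HCl3 (0.81, SE 0.14). Of 18 neuroendocrine, ionocyte and tuft genes, 2 of 7 rose in each washed-out group and 0 of 3 in Ni-E. DCLK1, a kinase found in tuft cells and neurons, went from 0.08 and 0.14 RPKM in UT to 1.07 and 0.97 in HCl3. Of 18 fibroblast, endothelial and blood genes, 1 of 9 rose and 2 fell in Ni-E, 1 of 12 rose and 2 fell in Ni-W, and 3 of 14 rose in HCl3. Some genes that rose here in HCl3, and in both washed-out groups in the list before, had at most 3 reads in each UT library. They could enter the test only through libraries in which they were higher, so these counts describe the genes and support no more. COL1A2, a fibrillar collagen chain, stood at 0.03 RPKM in both Ni-E libraries and at 2.05 and 2.01 in HCl3, and COL1A1 was higher in HCl3 than in Ni-W (0.92, SE 0.08). PDGFRB fell in Ni-E (-0.78, SE 0.16). The part of these genes in the other HCl3 and Ni-E values was not tested.

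Trends with the GC content and length of transcripts were removed in an alternative fit, which turned the balance of all calls. In Ni-W against UT, 69.2% of called genes were higher in the main comparison and 42.3% after this correction, while the median of all genes moved from 0.01 to -0.18. In HCl3 against UT the shares were 74.8 and 45.3%, and the median again moved to -0.18. Under the same correction ELF3 stayed called in Ni-W (log2 fold change 1.69) and HCl3 (0.86), MUC1 in Ni-W (1.71) and HCl3 (1.70), and NKX2-1 in both (adjusted P = 0.000638 and 0.00414). FOXA1 had 0.86 in both groups and lost its call in Ni-W (adjusted P = 0.0596).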

How the data were processed

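RNA-Seq libraries of BEAS-2B cells were grouped by the sample labels, with replicates told apart by the repeat suffix. The authors used STAR 2.4 and the hg19 build, dropped multiply aligned reads and deposited read counts and RPKM values per RefSeq gene. RPKM values were deposited by the authors with reads scaled to gene length and mapped reads. Strand use in counting is not given in the sources used here.

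Counts were fitted in R 4.3.3 with DESeq2 1.42.0 (Wald test, Benjamini-Hochberg), 4 libraries per comparison and all 25411 genes. DESeq2 and both call thresholds follow the study's methods. Total counts set the precision, and floors cover counting error only. The 10 genes and all lists were chosen with earlier results of these data known. The text names these genes, up to 4 called genes per list and comparison with the largest change (normalized counts averaging 50 or more), and the 3 genes with the highest Pearson r to each gene of a mean of at least 20. In the 10 lists, older or newer names of 5 genes were not matched. Cell type markers are named too, and GATA6, MUC4, MUC12, LCN2, WFDC2 and SERPINB4 were named after their values were seen. A gene that this rule names is not reported here. Scripts were tested on simulated data.

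Alternatives were edgeR 4.0.16, limma 3.58.1 on log2-transformed RPKM (pseudocounts 1 and 0.1), TMM factors, 8 libraries in 1 fit, a mean count of at least 10, no independent filtering, other fold thresholds, thinning to 26383920 reads, the suffix as a block, each library left out, subtraction of 10 Mb window medians and removal of GC and length trends (GC known for 98.3% of expressed genes). The crossed block was added after seeing the data. Same-suffix deviations had r between -0.16 and 0.2, so the suffix was not taken as a pairing. Figures were drawn with matplotlib 3.10.9.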

Additional observations from a re-analysis of the deposited data

Results flagged for a closer look

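ELF3 was marked for a closer look because the washed-out groups differed in it by their direct test, with a log2 fold change of -0.75 in HCl3 against Ni-W. In both groups ELF3 was above UT, by 1.99 in Ni-W and 1.24 in HCl3. Groups of 2 libraries are too small for a search for single outlying samples.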

How the results depend on the processing

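ELF3 and MUC1 were called in Ni-W and in HCl3 against UT under every alternative run, with log2 fold changes of 1.58 to 2.28 and 1.47 to 2.32 in Ni-W and of 0.86 to 1.52 and 1.60 to 2.44 in HCl3. Counts of called genes moved as follows. With all 8 libraries in one fit, 1 gene (NKX2-1) was called in Ni-E against UT and 0 in HCl3 against Ni-W. With limma on log2(RPKM + 1), 2 genes were called in each washed-out group against UT, 1 in Ni-W against Ni-E and 0 in HCl3 against Ni-W, and with a pseudocount of 0.1 the last 2 counts were 0. In HCl3 against Ni-W the count was also 0 after subtraction of window medians and at 2-fold. The edgeR test gave 2 in HCl3 against Ni-E. With each library left out, counts were 2 to 3 in Ni-W against UT, 2 to 4 in HCl3 against UT, 1 to 2 in Ni-W against Ni-E and 1 to 2 in HCl3 against Ni-E. With the replicate suffix as a block, 2 genes were called in Ni-W against UT, and 2 with GC and length trends removed as well; NKX2-1 then had adjusted P = 0.202 and 0.191. The block changed no other count of called genes by over 1.5 times, and neither did the crossed block. Calls of single genes did change. FOXA1 lost its call in Ni-W against UT in 9 of 18 alternatives (among them the block, adjusted P = 0.089, thinning, 0.158, and both trends removed, 0.0596, or with the block, 0.188) and in HCl3 against UT in 7 of 19 (the block, 0.137, the block with trends removed, 0.206, the crossed block, 0.0967, limma, where the change fell under 1.5-fold, and 3 left-out libraries). NKX2-1 gained a call in Ni-W against Ni-E with edgeR (0.0178), which made the count 3. ELF3 in Ni-E against UT, 0.07 in the main comparison, became -0.08 with the block, -0.21 with the block and both trends removed, -0.07 with the trends removed, -0.07 with the crossed block and -0.03 with limma at a pseudocount of 0.1; leaving out each library gave -0.83 to 0.61. MUC1 in the same comparison ranged from -0.79 to 0.37 when libraries were left out. FOXA1 in Ni-W against Ni-E became -0.03 after thinning, and in HCl3 against Ni-W it ranged from -0.09 to 0.16 when libraries were left out. MUC1 in HCl3 against Ni-W became -0.01 with the trends removed, alone or with the block. The cause of these changes was not tested. Over all genes, the backgrounds moved too, from 840 to 491 with the block and to 0 with limma in Ni-E against UT, and from 713 to 455 and to 247 or 267 in HCl3 against Ni-W.

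Lists kept their lean in part. With limma, 0 ciliated genes were called in Ni-W against UT, 1 in HCl3 against UT, and 3 transcription factors in Ni-W against Ni-E. In Ni-E against UT limma called 0 mucins and 0 alveolar genes, as it called 0 of all 17794 genes. With the block, 1 fibroblast, endothelial or blood gene was called in each comparison with UT. The edgeR test called 4 neuroendocrine, ionocyte and tuft genes in each washed-out group against UT. Without the trends 1 mucin was called in Ni-W and 2 alveolar genes in HCl3. Without the GC and length trends there were 7 basal genes higher and 1 lower in Ni-W against UT, 6 and 0 in HCl3, and 7 junction genes higher and 3 lower in HCl3. At 3 reads the smallest total allows no statement on TP63, SOX2, FOXA2, FOXJ1 or SCGB1A1 below 0.114 CPM.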
